A study of Homo sapiens with 2 samples.

Results

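The HOX genes encode homeodomain transcription factors that lie in 4 clusters, HOXA, HOXB, HOXC and HOXD, and were examined here in HCT116, an established line from a human colorectal carcinoma. Probe sets annotated with a single symbol of the form HOXA, HOXB, HOXC or HOXD plus a number were taken, antisense genes were left out, and each gene was represented by its brightest probe set. This gave 28 HOX genes of 19775 genes with such a probe set, made up of 1 HOXA, 10 HOXB, 9 HOXC and 8 HOXD genes. RefSeq lists 39 genes of this form. The other 11, 10 of the HOXA genes and HOXD3, were not analysed here, so the HOXA cluster could not be described beyond HOXA2. Total RNA was measured on 2 arrays, 1 from cells given a control siRNA and 1 from cells given siRNAs against both JMJD1A (now KDM3A) and JMJD1B (now KDM3B), taken 2 days after transfection. The latter is written here as the siJMJD1 array. Both cultures were of the same line, grown in serum-containing DMEM and transfected with the RNAiMAX reagent. No sequence of any siRNA was given in the sources used. With 1 array per group there was no replicate error and no test, so every difference is one between these 2 samples.

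Each HOX gene belongs to a paralog group numbered 1 to 13 by its position in the cluster, and in the embryo the low-numbered genes are active toward the head and the high-numbered ones toward the tail. The clusters are kept active by trithorax-type histone methyltransferases and silent by Polycomb complexes, and HOX proteins bind DNA together with PBX, MEIS and PKNOX cofactors. In the adult colon, HOX genes keep a region-specific pattern, and HOXB13 is a marker of its distal part. KDM3A and KDM3B remove methyl groups from lysine 9 of histone H3, a mark of silent chromatin.

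The brighter probe set of the target KDM3B read 3031 in control cells and 496 on the siJMJD1 array. The KDM3A probe set above the filter read 3884 and 3323, so the arrays differed more in KDM3B than in KDM3A. A gene was taken as measured, or above the filter, if the geometric mean of its signals on both arrays reached 50.4, the median over the non-control probe sets. All 7 epithelial markers checked lay above the filter, with EPCAM at 13794 and 19809. Fibroblast markers lay above it in 2 of 5 cases, leukocyte markers in 2 of 4 and endothelial markers in 1 of 3, at signals from 39.1 to 631. The 18 hybridization control probe sets had a median log2 ratio of 0.61 in favour of the siJMJD1 array. Setting the arrays level on these controls (below, the control scale) would take that amount off each log2 ratio, and the part of this offset in the HOX values was not tested. In RNA from a whole culture, fewer cells with a transcript and less of it per cell cannot be told apart.

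HOXD8 was the one measured HOX gene past 2-fold, and it was higher on the siJMJD1 array. Of the 28 HOX genes, 18 were measured. None of the 18 was past 2-fold downward, and 17 stayed under 2-fold. For all 12561 measured genes, the share past 2-fold was 8.91% upward, 8.53% downward and 17.4% in either direction, against 5.56% of the measured HOX genes. The HOX log2 ratios (JMJD1A/JMJD1B siRNA minus control) ran from -0.64 to 1.14 with an SD over genes of 0.47, where all measured genes had an SD of 0.78. The median size of the log2 ratio, whatever its sign, was 0.27 for the HOX genes and 0.48 for all measured genes. The log2 ratio of a single probe set had an SD of 0.54 between probe sets of one gene, and 14 of the 18 HOX genes lay within that range, as did 55.1% of all measured genes. That SD reflects differences between probes, and it leaves out any variation between cultures.

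**Figure D1:**
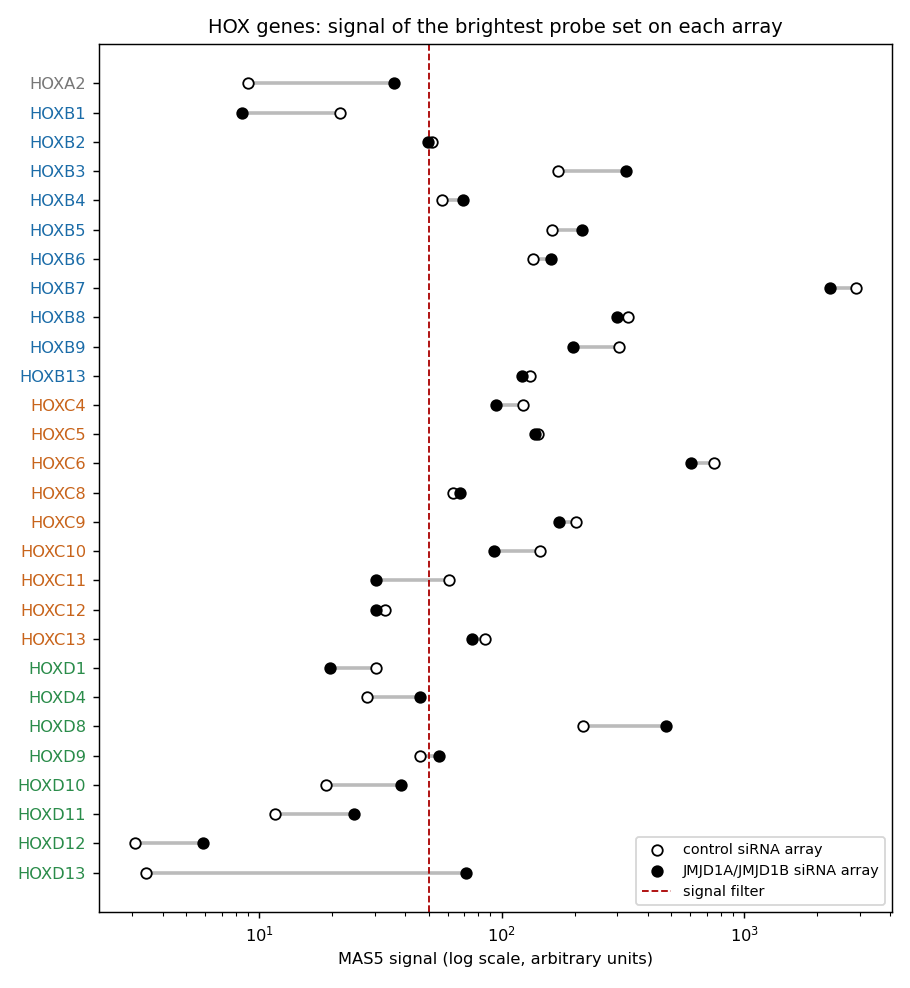
MAS5 signal of the brightest probe set of each of the 28 HOX genes, on a log axis, with the control siRNA array as open points and the siJMJD1 array (JMJD1A/JMJD1B siRNA) as filled points. The dashed line is the filter at 50.4, and gene names are coloured by cluster. HOXD8 moves from 216 to 475 while most HOXB and HOXC pairs lie close together, and 6 of the 8 HOXD genes sit to the left of the line by their mean.

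HOXD8, a central-group gene of the HOXD cluster, had a signal of 216 in control cells and of 475 on the siJMJD1 array. Both signals were well above the filter, and the difference was 2.20-fold, a log2 ratio of 1.14. The gene had 1 probe set, so no second one could be set beside it. Its log2 ratio was between 1.03 and 1.20 under median centring, quantile normalization, loess and a pseudocount, and 0.53 on the control scale, where the difference was under 2-fold.

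The upstream sequence of HOXD8 is shown as that of the gene that differed most among the measured members on the deposited scale. The window shared by HOXC4 and HOXC5 is given for contrast. These genes read 123 and 94.9, and 142 and 137, and changed little on that scale. On the control scale their log2 ratios would be -0.98 and -0.66, larger in size than that of HOXD8 at 0.53. Both windows are the 250 bases before the start site in RefSeq's GRCh38.p14 annotation. They are written 5′ to 3′ on the plus strand, with CpG dinucleotides in capitals. The HOXD8 window is chr2:176129455-176129704 and the HOXC4 and HOXC5 window is chr12:54016638-54016887.
HOXD8: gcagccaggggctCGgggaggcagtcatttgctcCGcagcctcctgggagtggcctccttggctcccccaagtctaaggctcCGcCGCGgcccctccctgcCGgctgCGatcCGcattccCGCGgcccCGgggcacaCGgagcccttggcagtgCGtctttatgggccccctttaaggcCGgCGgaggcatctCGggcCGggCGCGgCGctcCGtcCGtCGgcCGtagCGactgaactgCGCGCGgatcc
HOXC4 and HOXC5: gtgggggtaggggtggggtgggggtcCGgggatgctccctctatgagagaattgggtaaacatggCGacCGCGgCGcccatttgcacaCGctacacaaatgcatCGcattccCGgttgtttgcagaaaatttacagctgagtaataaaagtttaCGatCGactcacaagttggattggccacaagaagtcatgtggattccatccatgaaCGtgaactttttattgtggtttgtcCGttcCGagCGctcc
The HOXD8 window held 28 CpG dinucleotides and 72.4% G or C, and the HOXC4 and HOXC5 window 14 and 50.8%. Over 35116 upstream windows of the same length the medians were 11 and 58%, and 84.1% of windows had fewer CpG dinucleotides than that of HOXD8.

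Short motifs were counted in these windows on both strands, and a match is a description only. The motifs were ACGTG and, as its other form, GCGTG, the cores of the element that hypoxia-inducible factors bind, TATAAA as a TATA box, TAAT as a homeodomain core and CTTTGA as a TCF core. Palindromic overlaps, as in a site that holds ACGTG on each strand, were counted once per strand. Over all windows, ACGTG was found in 18.5%, GCGTG in 32.2%, TATAAA in 10.7%, TAAT in 47.4% and CTTTGA in 11.2%. None of the 5 was found in the HOXD8 window, which says only that these letters are not there. The HOXC4 and HOXC5 window held 1 match to ACGTG, 1 to GCGTG and 1 to TAAT. Windows were listed for 11 of the 28 HOX genes, 3 of them measured.

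The HOXB cluster was the most fully measured, with 9 of 10 genes above the filter. None of the 9 changed 2-fold, where 17.4% of all measured genes did in either direction. HOXB3 came nearest, at 172 and 325, 1.89-fold higher with a log2 ratio of 0.92. A dimmer HOXB3 probe set, below the filter, read 56.4 and 23.6 and so went the other way, and the HOXB3 and HOXB4 gene models overlap in RefSeq, so their signals may not be fully separate. HOXB4 itself read 57.05 and 69.2. HOXB5 was slightly higher by both measured probe sets, at 162 and 215 for the brighter, with log2 ratios of 0.41 and 0.47. HOXB6 read 135 and 159, a log2 ratio of 0.24. HOXB4, HOXB5 and HOXB6 would have log2 ratios below 0 on the control scale, and HOXB3 would stand at 0.31. With probe sets whose names end in _x_at or _s_at left out, 5 HOXB genes were measured. HOXB5, HOXB6, HOXB7 and HOXB8 then had no measured probe set.

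Toward the posterior end of the HOXB cluster the ratios lay below 0. HOXB7, a homeodomain factor often studied in epithelial tumours, read 2904 and 2255, with log2 ratios of -0.36, -0.31 and 0.089 by its 3 measured probe sets. HOXB8 read 332 and 300.03, a log2 ratio of -0.15. HOXB9 read 304 and 196, a log2 ratio of -0.63, but the other measured one read 144 and 202, or 0.49 on the log2 scale. These probe sets of HOXB9 differed by 1.12 on the log2 scale, and their mean was -0.071, so the direction for HOXB9 rested on which was used. HOXB13, the distal colon marker, read 130 and 121 by its brighter probe set and 126 and 90.1 by the other, log2 ratios of -0.11 and -0.48. HOXB2 stood at the filter, with signals of 51.9 and 49.5. The median log2 ratio of the 9 HOXB genes was -0.067, with 4 above 0 and 5 below, and it turned to 0.049 with a pseudocount of 32 and to 0.064 where both arrays had to reach the filter.

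In the HOXC cluster 7 of 9 genes were measured and none changed 2-fold, where 17.4% of all measured genes did. On the siJMJD1 array 6 of the 7 were lower by small amounts, where 52.1% of all measured genes were higher. HOXC10, a posterior-group gene, had the largest difference, at 144 and 92.7, a log2 ratio of -0.64. HOXC6 read 748 and 602, a log2 ratio of -0.31. HOXC9 read 204 and 173, and HOXC13 read 85.1 and 75.6, log2 ratios of -0.24 and -0.17. HOXC4 had a log2 ratio of -0.37 and HOXC5 one of -0.047. In RefSeq the HOXC4, HOXC5 and HOXC6 gene models overlap and share a start, so their probe sets may report transcripts in common. HOXC8 was the exception, at 63.3 and 67.5, a log2 ratio of 0.093 that would lie below 0 on the control scale. Of these 7 genes, HOXC10 alone lay beyond the probe-set SD. The median log2 ratio was -0.24 and was below 0 under each of the 10 alternatives that could move it, from -0.85 to -0.20.

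In the HOXD cluster 2 of 8 genes were measured, HOXD8 and HOXD9. HOXD9, a posterior-group gene, read 46.1 and 55.3, at the filter, with a log2 ratio of 0.26. Its second probe set, below the filter, read 30.03 and 13.3. HOXD9 would have a log2 ratio below 0 on the control scale. The median of 0.70 over these 2 genes is therefore a value carried by HOXD8.

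**Figure D2:**
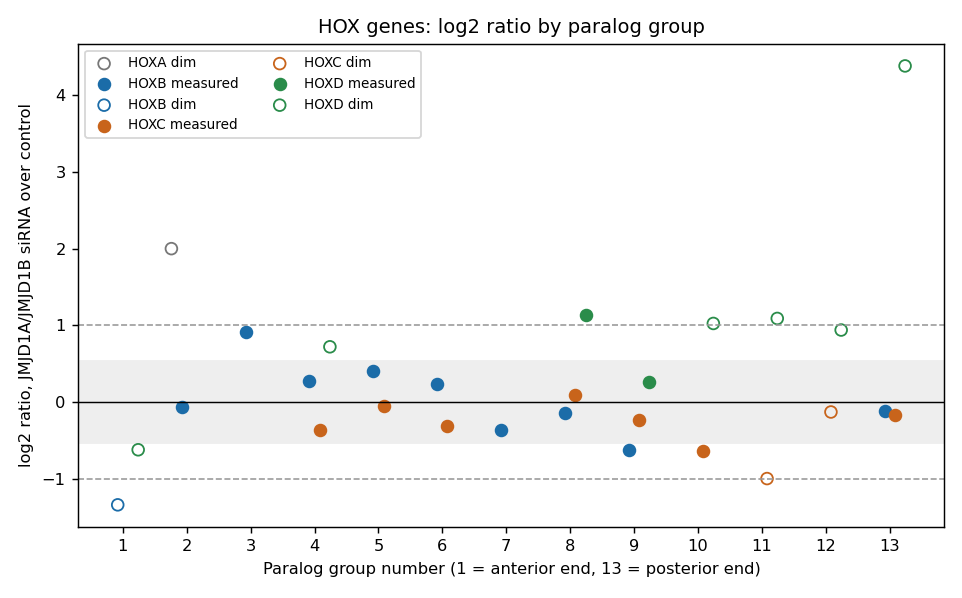
Log2 ratio (JMJD1A/JMJD1B siRNA over control) of each HOX gene against its paralog group number, with filled points for measured genes and open points for dim ones. The grey band is the probe-set SD of 0.54 on either side of 0 and the dashed lines mark 2-fold. Measured HOXB and HOXC genes lie between -0.64 and 0.92 and HOXD8 at 1.14 on the deposited scale; on the control scale every point would be 0.61 lower.

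By position in the clusters, 2 of 5 anterior genes (groups 1 to 3), 10 of 11 central genes (groups 4 to 8) and 6 of 12 posterior genes (groups 9 to 13) were measured. The median log2 ratios were 0.43 for the anterior, 0.023 for the central and -0.20 for the posterior genes. Of the posterior genes, 5 of 6 had a ratio below 0, where 52.1% of all measured genes had one above 0. HOXB9, whose direction rested on the probe set used, is among the 5. On the control scale the 3 medians would be -0.18, -0.59 and -0.81, all below 0. Each group held few genes, and HOXB3 set most of the anterior value. In groups 4, 5 and 6 the HOXB gene had a ratio above 0 and the HOXC gene one below it. In group 8 HOXB8 was below 0 and HOXC8 and HOXD8 were above it, and in group 9 HOXB9 and HOXC9 were below and HOXD9 above. On the control scale HOXD8 would be the only one of these still above 0. HOXD9 reached the filter on the siJMJD1 array alone, and its second probe set, below the filter, had the lower signal there. In group 13 both measured genes, HOXB13 and HOXC13, had ratios below 0.

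The other 10 HOX genes were dim. They were HOXA2, HOXB1, HOXC11, HOXC12, HOXD1, HOXD4, HOXD10, HOXD11, HOXD12 and HOXD13, with control signals from 3.07 to 60.7. In 8 of them both signals lay under the filter, and no fold is given for these. Just inside the filter, by the mean over both arrays, were HOXD9 at 50.5, HOXB2 at 50.7 and HOXB4 at 62.8. Just outside it were HOXC11 at 43.0, HOXD4 at 35.9 and HOXC12 at 31.7. HOXC11 read 60.7 on the control array and 30.4 on the other, which is at least 1.20-fold lower with the dim signal raised to the filter. HOXC12 read 33.1 and 30.3.

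HOXD13, the most posterior HOXD gene, was under the filter on the control array at 3.43 and above it on the siJMJD1 array at 71.5. Against the filter this is at least 1.42-fold higher, and error in the brighter signal is not allowed for. A second HOXD13 probe set read 4.43 and 35.4 and the remaining one 2.99 and 2.77, both probe sets lying below the filter. The brightest probe sets of its neighbours were dim on both arrays. HOXD10 read 19.0 and 38.6, HOXD11 11.6 and 24.7, and HOXD12 3.07 and 5.90. HOXD4 read 28.0 and 46.1, while HOXD1 read 30.2 and 19.7. Counting dim genes too, 7 of the 8 HOXD genes had the higher signal on the siJMJD1 array, and 6 would on the control scale. At this brightness signals scatter widely: of all 7214 genes below the filter, 56.7% had the higher signal on that array, with 28.5% past 2-fold upward and 19.9% downward. HOXA2 read 8.96 and 35.9, and HOXB1, the gene at the anterior end of its cluster, 21.5 and 8.51.

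**Figure D3:**
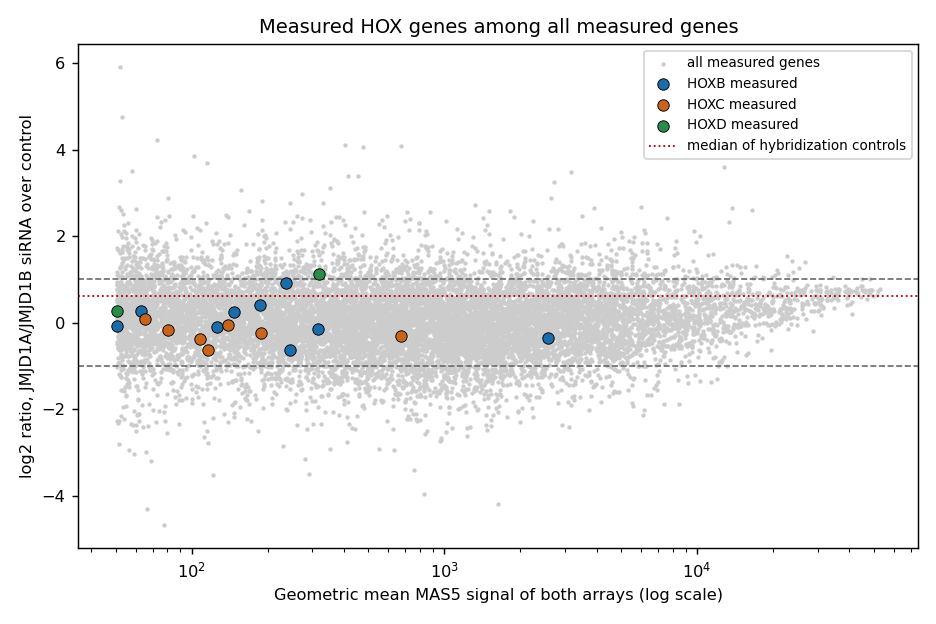
Log2 ratio against the geometric mean signal of both arrays (log axis) for all 12561 measured genes in grey and the 18 measured HOX genes in colour by cluster. Dashed lines mark 2-fold and the dotted line the hybridization controls at 0.61. HOXD8 is the only coloured point beyond a dashed line on the deposited scale, and on the control scale HOXB9 and HOXC10 would lie beyond the lower one instead.

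Different HOX genes passed 2-fold with the arrays set level on the hybridization controls. HOXD8 dropped below 2-fold, and HOXB9 and HOXC10 would then be more than 2-fold lower, at -1.24 and -1.25. On that scale 2.15% of all measured genes passed 2-fold upward and 27.7% downward. The median of the 18 HOX genes was -0.088 on the deposited scale, beside 0.041 for all measured genes, and -0.70 on the control scale, beside -0.57. Of the 18 genes, HOXB3 and HOXD8 would be the 2 with a ratio above 0 on the control scale.

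On the deposited scale the DNA-binding partners of HOX proteins changed less than 2-fold, where 17.4% of all measured genes changed 2-fold. Of 9 PBX, MEIS and PKNOX genes, 7 were measured, with log2 ratios from -0.55 to 0.46 and a median of -0.094 (-0.70 on the control scale). PKNOX1 had the largest ratio, at 432 and 295, but its 4 measured probe sets ran from -0.55 to 0.72. On the control scale 3 of the 7 would be past 2-fold downward, MEIS2 at -1.10, PKNOX1 at -1.16 and PKNOX2 at -1.08, where 27.7% of all measured genes were. MEIS1 was below the filter, at 5.34 and 34.1. Of 10 ParaHox and related homeobox genes, 4 were measured and none changed 2-fold on the deposited scale, beside the same 17.4%. The intestinal factor CDX2 read 108 and 78.2, a log2 ratio of -0.46, and would be past 2-fold at -1.07 on the control scale, the 1 of the 4 that would.

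Among genes that regulate the HOX clusters, 3 of 15 trithorax-group and related genes were past 2-fold downward and none upward, where 8.53% and 8.91% of all measured genes were. WDR5, a core subunit of the H3K4 methyltransferase complexes, read 1385 and 520. MEN1, which tethers the MLL complex, read 883 and 389, and the methyltransferase KMT2D read 1055 and 521. KMT2A, the MLL enzyme known for maintaining HOX expression, had a log2 ratio of -0.47, and its 7 measured probe sets ran from -1.29 to -0.20. The counts past 2-fold rest on the brightest probe set of each gene. KMT2D had 3 measured probe sets, from -1.10 to -0.88. The 4 of KDM6B ran from 0.34 to 1.27 and the 3 of AFF1 from -0.31 to 1.89. The list median was -0.19, -0.80 on the control scale, and 0.014 at its highest among the alternatives. On the control scale 4 of the 15 would be past 2-fold downward and none upward, beside 27.7% and 2.15% of all measured genes.

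Of 12 measured Polycomb genes, 2 were past 2-fold downward and 1 upward, beside 8.53% and 8.91% of all measured genes. On the control scale 4 would be past 2-fold downward, with EED at -1.01 and PHC3 at -1.45 added, and 0 upward, beside 27.7% and 2.15%. SUZ12, a subunit of the H3K27 methyltransferase complex, read 5871 and 1800.2, a log2 ratio of -1.71 by its one measured probe set. CBX2, a reader of that mark, had log2 ratios of -1.03 and -0.31 by its 2 measured probe sets. JARID2, a partner of the same complex, read 791 and 1748, a log2 ratio of 1.14, or 0.53 on the control scale. Its other measured probe set had a log2 ratio of 0.63, under 2-fold. PHC2 was under 2-fold by its brightest probe set, at 0.60, but its 3 measured ones ran from -0.24 to 4.12. The 2 of PHC1 ran from -1.08 to -0.0076. Among 10 measured genes of the retinoic acid axis, which induces HOX genes in the embryo, DHRS3, a retinaldehyde reductase, was 5.37-fold higher (615 and 3300), and the list median of 0.50 turned to -0.11 on the control scale. Of 7 other genes tied to HOX loci, the insulator protein CTCF was 2.14-fold lower (2958 and 1383) and the nuclear receptor NR6A1 2.16-fold higher (145 and 312), or 0.50 as a log2 ratio on the control scale. On that scale 1 gene of the retinoic acid list would be past 2-fold upward and 1 downward, and of these 7 others 0 upward and 2 downward. The part of any of these differences in the HOX values was not tested.

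**Figure D4:**
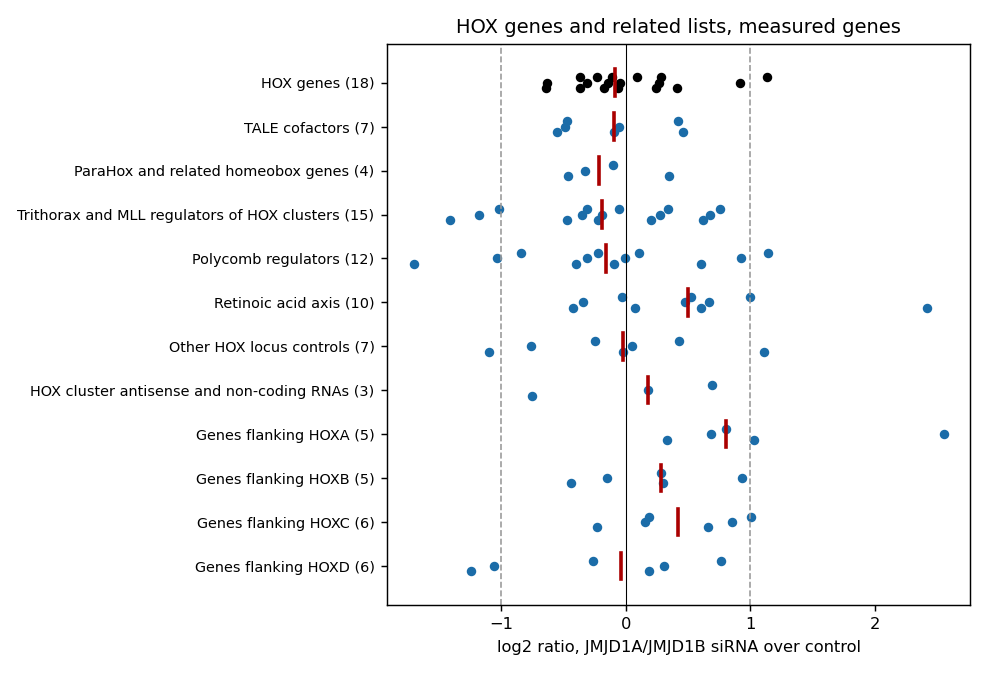
Log2 ratios of measured genes in the HOX family and in each related list, with the number of measured genes in brackets. Each point is a gene, red bars are list medians and dashed lines mark 2-fold. The HOX genes and their TALE cofactors (PBX, MEIS and PKNOX) have medians of -0.088 and -0.094 on the deposited scale, and on the control scale every point and median would be 0.61 lower.

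Non-coding RNAs and neighbours of the clusters were read beside the HOX genes. Of 16 non-coding HOX-cluster RNAs, 3 were measured and none changed 2-fold on the deposited scale, beside 17.4% of all measured genes. HOXA11-AS, an antisense transcript of the HOXA cluster, read 84.1 and 49.8, and HOXD-AS2 read 184 and 208. Outside the clusters, the counts past 2-fold stand beside 8.91% upward and 8.53% downward over all measured genes. None of the 5 measured genes near HOXB changed 2-fold, and CALCOCO2 had the largest ratio there, 0.93. Near HOXC, 1 of 6 was past 2-fold, CALCOCO1 at 165 and 330, the coding gene next to the cluster beyond HOXC13. Near HOXD, 2 of 6 were past it, both downward, HNRNPA3 and NFE2L2, at 5154 and 2175, and 7328 and 3524, while MTX2, the coding gene next to HOXD1, read 3137 and 2613. Near HOXA, 2 of 5 were past 2-fold. SKAP2 read 529 and 1081, and JAZF1 read 292 and 1722, the latter 5.89-fold higher. On the control scale SKAP2 and CALCOCO1 would be under 2-fold, while HOXA11-AS, at -1.37, and NFE2L1 near HOXB, at -1.05, would be past it downward.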

How the data were processed

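The authors deposited 1 table of linear MAS5 signal intensities for 54675 probe sets on 2 arrays, and the submitters' processing notes name MAS5 as the tool. Its version was not given in the sources used here. Both columns had a trimmed mean of 500.1 (2% left out at either end), so a whole-array scaling had been applied. Biotinylated material came from 0.5 ug of total RNA, per the labels' protocols. Detection calls were not used here.

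The platform annotation gave the gene names: 41091 had 1 symbol, 1801 several and 11721 none, and no symbol changed through the RefSeq gene table. Log2 ratios used no pseudocount. A gene was measured if its brightest probe set's mean log2 signal reached the median of non-control probe sets. The number of arrays limits the precision, and no test was possible. Every measured HOX gene is named, with dim ones by range or as neighbours of the filter or of HOXD13. From the other lists the rule took up to 3 members past 2-fold or, failing that, the one that changed most. KMT2A, KDM6B, AFF1, MEIS1, MEIS2, PKNOX2, EED, PHC1, PHC2, PHC3, NFE2L1, HOXD-AS2 and MTX2 were added after their values were seen. The members and lists were chosen with earlier results of these data known. Alternatives covered 4 other scalings, a pseudocount of 32, filters, probe-set rules and folds of 1.5 and 3. Calculations used Python 3.11.15, numpy 2.4.6, pandas 2.3.3 and statsmodels 0.14.6, and were checked on simulated data.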

Additional observations from a re-analysis of the deposited data

Results flagged for a closer look

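HOXD13 lies outside the comparison because its mean signal is below the filter, yet its brightest probe set read 71.5 on the siJMJD1 array, above the filter, against 3.43 on the control array. The hybridization controls, which are outside the gene comparison, had log2 ratios in favour of the siJMJD1 array with a median of 0.61 and a range of 0.40 to 0.71.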

How the results depend on the processing

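Scaling to the hybridization controls moved the most values. It takes 0.61 off every log2 ratio, more than the limit of 0.54 for a moved log2 value. Every log2 value was therefore bound to count as moved. The HOX median became -0.70, that of HOXB -0.68, of HOXC -0.85 and of HOXD 0.089. The HOX genes at least 2-fold higher fell to 0 (HOXD to 0) and those lower rose to 2, with 1 in HOXB and 1 in HOXC, beside 2.15% and 27.7% of all measured genes, so that 7.19% of the changed genes were higher in place of 51.1%. On that scale the list medians were -0.70 for TALE cofactors, -0.83 for ParaHox genes, -0.80 for trithorax, -0.77 for Polycomb, -0.11 for retinoic acid, -0.64 for other locus genes, -0.44 for non-coding RNAs, and 0.19, -0.33, -0.19 and -0.65 for genes near HOXA, HOXB, HOXC and HOXD.

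With no filter all 28 HOX genes counted, and 16.1% of all genes were higher. Of the 28, 5 were higher (HOXA2, HOXD8, HOXD10, HOXD11 and HOXD13, 4 of these in HOXD) and 1 lower (HOXB1, in HOXB). The dim HOX genes made up 4 of the higher and the 1 lower. Of all genes below the filter, 28.5% were past 2-fold upward and 19.9% downward. The 75th percentile filter left 2 HOX genes, HOXB7 and HOXC6, with 0 higher and no HOXD gene. Without probe sets whose names end in _x_at or _s_at, 12 HOX genes were measured, 5 of them in HOXB. HOXB5, HOXB6, HOXB7, HOXB8, HOXC6 and HOXC13 dropped out. At 1.5-fold, 2 HOX genes were higher (1 in HOXB) and 2 lower (1 in HOXB, 1 in HOXC), beside 21.7% and 19.5% of all measured genes. At 3-fold 0 were higher (HOXD 0), beside 2.28% and 2.26%. HOXD8 was at least 2-fold higher under the alternatives other than control scaling, the 3-fold threshold and the 75th percentile filter, which left it out. Of the 18 HOX genes, 5 changed sign under control scaling and none under median centring, quantile normalization or loess. HOXB9 moved from -0.63 to -0.071 by the mean of its probe sets. Of 478 further values, 399 stayed close to the reported value, 79 moved and 0 reversed. A log2 value counted as close within 0.54, so a small ratio could change sign and still be close. Only a log2 value already past 2-fold could count as reversed, which among the HOX genes was HOXD8. The 0 therefore says little about direction. Leaving out a replicate was not possible with 1 array per group. No paired analysis was possible because each group held 1 array.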

Other observations

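Further transcripts of the HOX loci had a mean signal below the filter of 50.4. HAGLR exceeded it in control cells, and HOXB-AS1 and HOXB-AS3 did on the siJMJD1 array. HOTAIR, a non-coding RNA of the HOXC cluster, read 13.9 in control cells and 3.07 on the siJMJD1 array. HOXA-AS2 read 4.69 and 29.0, and HOXA-AS3 44.0 and 20.9. HAGLR, a non-coding RNA next to HOXD1, read 60.4 and 30.7. HOXB-AS1 read 31.1 and 52.5, and HOXB-AS3 read 36.4 and 60.0. Of the retinoic acid genes below the filter, ALDH1A2, a retinaldehyde dehydrogenase, read 11.6 and 73.2. The 3 probe sets annotated with several symbols that include HOXD3 and HOXD4 were at or under 19.6 on both arrays. These genes were chosen after their values were seen.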
